A study of Drosophila melanogaster with 30 samples.

Results

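The response of whole third-instar larvae of Drosophila melanogaster to dietary cholesterol was measured as the mean difference between refed and low-cholesterol animals over 3 genotypes, using all 30 libraries of the series. Larvae were first depleted on food with 1.2 µg/mL cholesterol and then spent 10 h either on food with 80 µg/mL cholesterol (refed, 15 libraries) or on fresh food with 1.2 µg/mL (low cholesterol, 15 libraries). The genotypes were HR3-RNAi (Tub-GAL80TS/+ Tub-GAL4/+ with UAS-Hr3-RNAi/+), TOR-RNAi (the same driver with UAS-Tor-RNAi/+) and controls with the driver alone. Each genotype and diet had 5 libraries of 5 pooled larvae. All groups, controls included, carried the ubiquitous tubulin GAL4 driver with its temperature-sensitive repressor and were moved from 18 °C to 29 °C. No group analysed here stayed on cholesterol-replete food throughout, so every comparison sets refed animals against depleted ones. In whole larvae, fewer cells of a type and less RNA per cell cannot be told apart.

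Insects cannot build the sterol ring themselves and depend on sterols from food. In the fly midgut, lipases free cholesterol from its esters, the membrane transporter Npc1b is needed for its absorption, and small sterol-binding proteins of the Npc2 family carry it. The nuclear receptor Hr96 binds cholesterol and regulates genes of lipid uptake, among them the acid lipase gene mag (magro). Inside cells, sterols pass through lysosomes, where hydrolases also break down glycoproteins and sphingolipids.

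Libraries held 19744564 to 33510753 counts. The level of mTor, the gene for TOR, was 24.5 to 42.8 CPM, counts scaled to a common library size, in the TOR-RNAi libraries, below the 45.3 to 55.0 CPM of controls, while Hr3 had at most 17 counts in any library and its knockdown could not be judged from counts. The sex of the pooled larvae was not given, and roX1 and roX2, non-coding RNAs made in males, together averaged 85.1 CPM in refed and 110.3 CPM in low-cholesterol libraries (permutation test within genotype, two-sided, p = 0.229). The lowest roX levels were those of control refed replicate 2 (10.5 CPM) and TOR-RNAi low-cholesterol replicate 1 (3.28 CPM), and both libraries also stood at 1 end of the first principal component. Defining markers of the fat body, midgut, muscle, epidermis, hemocytes, nervous system and prothoracic gland were present in every library. Of the 6 midgut markers, 4 were called on refeeding (Jon65Ai, Jon65Aiii, Amy-p and Npc1b). The summed midgut level was 3325 to 5160 CPM in refed and 3514 to 5138 CPM in low-cholesterol libraries. That sum includes Npc1b, which fell, beside Jon65Ai, Jon65Aiii and Amy-p, which rose. Its overlap between the diets therefore cannot show whether the midgut share of the RNA was alike. No marker of the other tissues was called. Summed salivary glue gene levels ran from 0.288 to 828 CPM in refed and from 0.0383 to 2119 CPM in low-cholesterol libraries. These genes are switched on late in the third instar, and the part of their spread in the results was not tested.

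Refeeding changed 676 of 12178 genes tested (5.55%), of which 443 rose (3.64% of all genes tested) and 233 fell (1.91%), by edgeR's quasi-likelihood test with genotype as an additive term and Benjamini-Hochberg adjusted p under 0.05. This test and threshold apply to every call below, and fold changes are log2 values of refed over low cholesterol with their standard error (SE). At an unadjusted p under 0.05 there were 1848 genes. Most changes were modest, with a median size of 0.35 among called genes, and 45 genes rose and 19 fell at least 2-fold. The median over all genes tested was -0.0023. DESeq2's Wald test called 840 genes and split them more evenly, with 461 up and 379 down. For 34 genes all 15 refed libraries lay above all 15 low-cholesterol libraries (0.279% of genes tested), and for 17 genes they all lay below (0.14%), and all 51 of these genes were also called. Called genes were spread over the chromosome arms at 5.24% of tested genes on X, 6.15% on 2L, 6.14% on 2R, 5.52% on 3L and 5.26% on 3R, with 0 of 91 on chromosome 4. Genes known only by a CG or CR number made up 40.2% of called genes and 41.3% of tested genes.

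The largest rises and falls were of the same sign in each genotype. This was required of the 28 genes chosen by size, 14 in each direction, but 654 of the 676 called genes (96.7%) also had 1 sign in all 3 genotypes, against 35.5% of all genes tested, a description only since each genotype took part in the call. Along the direction of the call, the median change of called genes was 0.35 in HR3-RNAi animals, 0.30 in TOR-RNAi animals and 0.39 in controls.

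**Figure D1:**
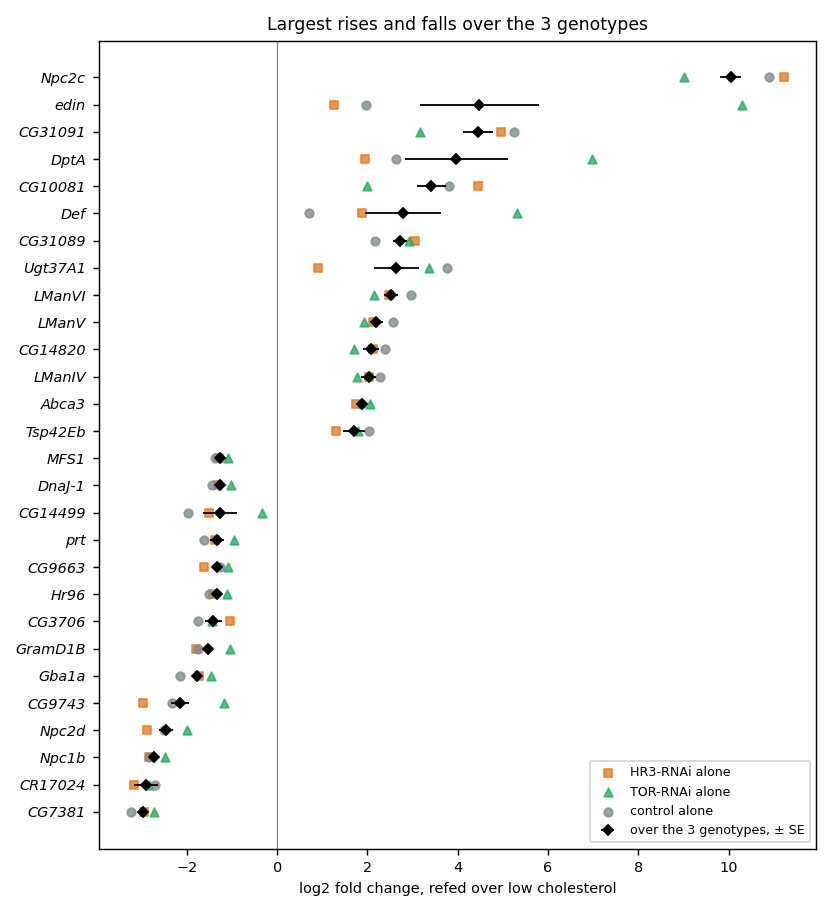
Log2 fold change (refed over low cholesterol) of the 14 largest rises and 14 largest falls. Diamonds with bars give the estimate over the 3 genotypes ± SE, and the other symbols the estimate within each genotype. All symbols of a gene lie on 1 side of 0, and they spread most for edin, where TOR-RNAi alone gave 10.30 and HR3-RNAi alone gave 1.26.

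Genotypes that took no part in a call were used to repeat it. Of 346 genes called in HR3-RNAi and TOR-RNAi animals together, 339 could be tested in controls, where 328 (96.8%) changed in the same direction and 200 (59.0%) were called in the 10 control libraries alone. In those control libraries 3.83% of all genes tested were called, and 60.6% of all genes had the same sign in both fits. Of 433 genes from the TOR-RNAi and control libraries that could be tested in HR3-RNAi animals, 392 (90.5%) had the same direction and 175 (40.4%) were called, against 3.44% of all genes there, and 58.6% of all genes had the same sign in both of these fits. Of 764 genes from the HR3-RNAi and control libraries, 585 (76.6%) had the same direction in TOR-RNAi animals and 63 (8.25%) were called, against 0.562% of all genes there, and 57.6% of all genes had the same sign in both of these fits. The share called in TOR-RNAi animals was between 4.96% and 5.49% without TOR-RNAi refed replicate 1 or 5 or TOR-RNAi low-cholesterol replicate 2 or 5. The median size of these genes fell short of its value in the calling genotypes in TOR-RNAi animals (0.18, against 0.33) and in HR3-RNAi animals (0.34, against 0.45), but not in controls (0.51, against 0.51). The calling fit picks genes whose estimates are high in its own libraries, so the size in the third genotype is the one that selection did not touch.

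**Figure D2:**
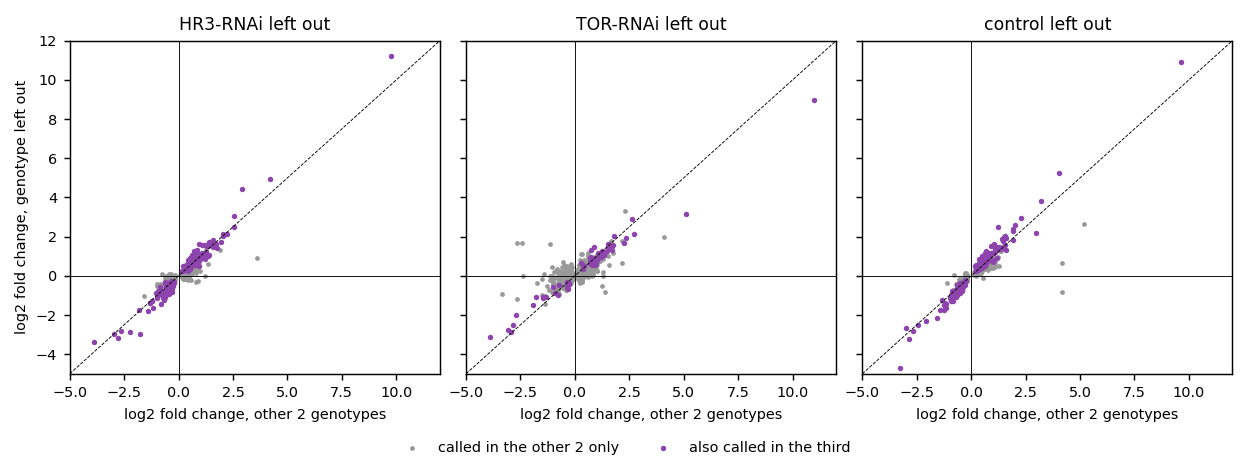
Log2 fold change in the 20 libraries of 2 genotypes (x) against that in the 10 libraries of the genotype left out (y), for genes called in the 2 genotypes. Purple points were also called in the third genotype: 175 of 433 in HR3-RNAi, 63 of 764 in TOR-RNAi and 200 of 339 in controls. The dashed line marks equal change and the isolated point at the upper right is Npc2c.

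Genes of sterol uptake and trafficking took part in both directions. Of 14 such genes tested, 3 rose and 5 fell, with a list median of 0.04. Npc2c, a member of the Npc2 family of sterol-binding proteins, was close to silent on low cholesterol and abundant after refeeding. It had 1639 to 3323 counts per refed library and 0 to 8 counts per low-cholesterol library, with 0 counts in 6 of the 15. Summed over libraries, 33261 counts in refed and 30 counts in low-cholesterol animals gave a ratio of 1077 after scaling by library totals (95% exact interval 754 to 1596, counting error only). The groups were far apart in every genotype, and the fitted log2 fold change was 10.04 ± 0.23 (adjusted p = 1.15e-23), a size that depends on how counts near 0 are handled. A non-coding gene annotated on the opposite strand, asRNA:CR45205, overlaps Npc2c, and whether strand was used in counting was not given in the sources used here, but it had at most 5 counts in any library.

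Npc2d, the gene next to Npc2c, went the other way. It had 3.08 to 12.9 CPM in refed libraries (median 6.04), against 21.3 to 47.6 CPM in low-cholesterol libraries (median 37.8), and the diets did not overlap (log2 fold change -2.46 ± 0.16, adjusted p = 6.98e-13). Within genotypes its log2 change was -2.88 in HR3-RNAi animals, -1.998 in TOR-RNAi animals and -2.52 in controls. In the BDGP6 annotation Npc2d lies on chromosome 3R from 10055356 to 10056083 on the minus strand, and Npc2c on 3R from 10060252 to 10061136 on the plus strand, 4169 bases further on. Fancl, a ubiquitin ligase gene of DNA repair that lies 2487 bases on the other side of Npc2d (3R, 10051508 to 10052869) with Npc2e between, also fell (log2 fold change -0.76 ± 0.11, adjusted p = 5.34e-06), and was looked at after its values were seen. Npc2e itself had at most 7 counts in any library and was not tested.

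On the FPKM scale, which divides by gene length, Npc2g was the most abundant Npc2 gene on both diets, with a median of 234 FPKM in refed and 196 FPKM in low-cholesterol libraries, and it rose slightly (log2 fold change 0.28 ± 0.05, adjusted p = 1.92e-04). Npc2a, which acts in sterol export from lysosomes, had medians of 104 and 109.5 FPKM and was not called (log2 change -0.06, adjusted p = 0.723), nor were Npc2f, Npc2b and Npc2h. In refed larvae Npc2c stood at a median of 119.6 FPKM, beside 104 FPKM for Npc2a and 102.5 FPKM for Npc2f, whereas on low cholesterol it stood at 0.0672 FPKM.

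Npc1b fell after refeeding. It had 91.5 to 173 CPM in refed libraries (median 122), against 571 to 1057 CPM in low-cholesterol libraries (median 822), without overlap (log2 fold change -2.72 ± 0.10, adjusted p = 1.35e-18). Its change was -2.84 in HR3-RNAi animals, -2.49 in TOR-RNAi animals and -2.84 in controls. Npc1a, the paralogue that acts in intracellular sterol traffic in most cells, had a log2 change of 0.11 and was not called (adjusted p = 0.289). On the FPKM scale Npc1b had a median of 29.9 FPKM in refed and 208 FPKM in low-cholesterol libraries, and Npc1a 14.4 and 14.03 FPKM.

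Hr96 fell as well. Its transcript had 30.5 to 53.4 CPM in refed libraries (median 35.9), against 80.4 to 107 CPM in low-cholesterol libraries (median 93.5), again without overlap (log2 fold change -1.34 ± 0.06, adjusted p = 1.23e-15). Of 19 nuclear receptor genes tested, Hr96 was the only one called, and the list median was -0.05. The lipase gene mag, also in the sterol list, had 597 to 1479 CPM in refed libraries (median 1009), against 1411 to 2662 CPM in low-cholesterol libraries (median 1989) and fell (log2 fold change -0.98 ± 0.09, adjusted p = 5.04e-09). Its diets overlapped only at the edge, where the highest refed library exceeded the lowest low-cholesterol one.

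GramD1B fell too. Its mammalian relatives, the GRAMD1 proteins, move cholesterol from the plasma membrane to the endoplasmic reticulum. It had 61.5 to 123 CPM in refed libraries (median 70.6), against 162 to 286 CPM in low-cholesterol libraries (median 226) (log2 fold change -1.54 ± 0.09, adjusted p = 3.30e-13), and its diets did not overlap. Osbp, an oxysterol-binding protein, fell by a small amount (-0.28 ± 0.04), and ScpX, a thiolase of the sterol carrier family, rose by 0.24 ± 0.06. Start1, a sterol transfer protein of the ecdysone-producing gland, had a log2 change of 0.12 and was not called (adjusted p = 0.337).

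**Figure D3:**
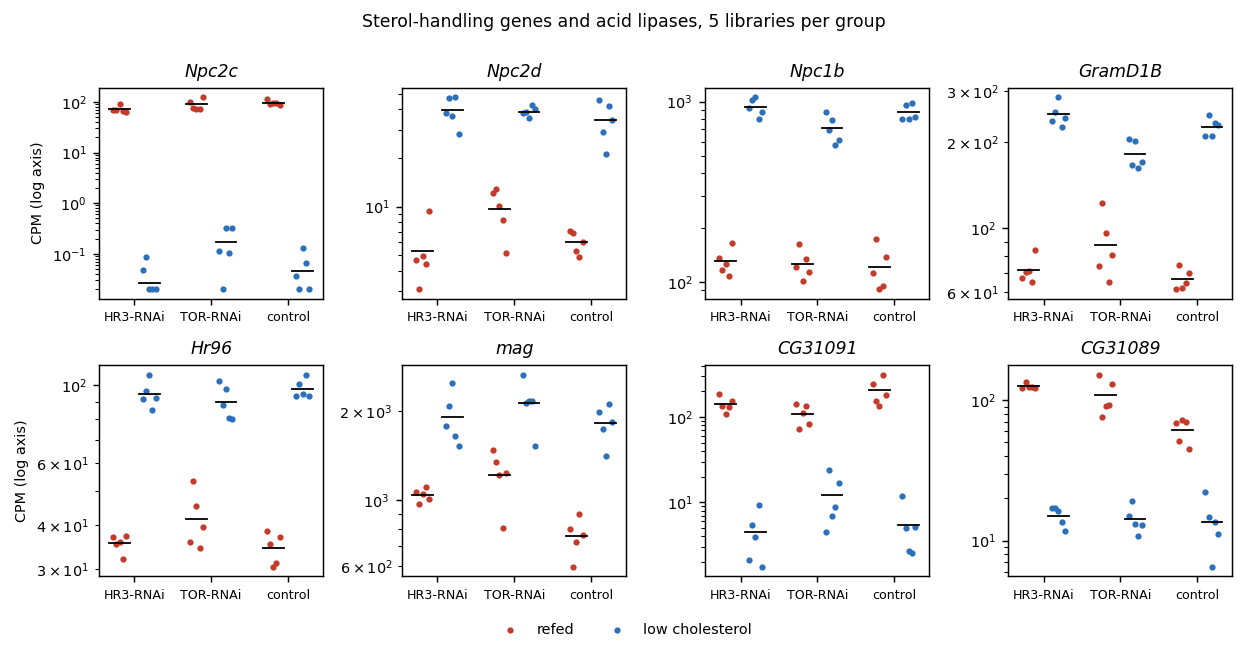
CPM (log axis) of 8 sterol-handling and acid lipase genes in each library, with refed libraries (red) left of low-cholesterol libraries (blue) within each genotype and black bars at group means. Low-cholesterol libraries with 0 counts of Npc2c are drawn at 0.02 CPM. The diets do not overlap for any of the 8 genes but mag, whose 15 refed libraries span 597 to 1479 CPM.

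Acid lipases, relatives of mag that hydrolyse cholesterol esters and triglycerides, split into rising and falling members. Of 12 tested, 4 rose and 2 fell, with a list median of 0.09. CG31091 rose most, with 73.1 to 314 CPM in refed libraries (median 136), against 1.76 to 23.7 CPM in low-cholesterol libraries (median 5.10) (log2 fold change 4.45 ± 0.34, adjusted p = 3.53e-11). CG31089 had 45.3 to 152 CPM in refed libraries (median 92.4), against 6.52 to 22.3 CPM in low-cholesterol libraries (median 13.6) (log2 fold change 2.72 ± 0.15, adjusted p = 3.49e-14). For both genes every refed library exceeded every low-cholesterol library. CG2772 (0.72 ± 0.08) and CG3635 (0.72 ± 0.08) also rose, while Lip3 fell with mag (log2 fold change -1.02 ± 0.14, adjusted p = 2.87e-06). On the FPKM scale mag remained the most abundant of these 6 on both diets, at a median of 669 FPKM in refed and 1396 FPKM in low-cholesterol libraries, whereas CG31091 had 63.5 and 2.36 FPKM. Of 20 pancreatic-type lipases, 1 was called, CG6277 (0.56 ± 0.14), and the list median was 0.07.

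Among membrane receptors and transporters for lipids, the CD36-type and ABCG families had called members in both directions. Of 12 CD36-type scavenger receptors, 2 rose and 2 fell (list median 0.02). This was 16.7% in each direction, beside 3.64% up and 1.91% down of all genes tested. The gene crq (croquemort), a phagocytic receptor of hemocytes, had 169 to 224 CPM in refed libraries (median 194), against 77.5 to 127 CPM in low-cholesterol libraries (median 92.2) and rose (log2 fold change 1.08 ± 0.06, adjusted p = 1.87e-14). The marker genes of hemocytes were not called. The gene ninaD, which takes up carotenoids in the gut, had 196 to 487 CPM in refed libraries (median 277), against 313 to 737 CPM in low-cholesterol libraries (median 493) and fell (log2 fold change -0.84 ± 0.10, adjusted p = 8.70e-07). The gene pes (peste) fell by 0.80 ± 0.09 on the log2 scale and CG3829 rose by 0.45 ± 0.07. 

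Of 15 ABCG transporters, the family that in mammals exports sterols, Atet (0.77 ± 0.06) and CG3164 (0.40 ± 0.05) rose and CG9663 fell (list median 0.05). The shares were 13.3% upward and 6.67% downward, beside 3.64% and 1.91% of all genes tested. CG9663 had 18.1 to 28.7 CPM in refed libraries (median 22.96), against 43.4 to 82.5 CPM in low-cholesterol libraries (median 58.7) (log2 fold change -1.33 ± 0.08, adjusted p = 3.79e-13). Abca3, of the related ABCA family of lipid transporters, had 162 to 345 CPM in refed libraries (median 210.1), against 47.2 to 83.1 CPM in low-cholesterol libraries (median 57.4) (log2 fold change 1.88 ± 0.08, adjusted p = 1.31e-16). For Atet, CG9663 and Abca3 the diets did not overlap. Of 9 genes of lipoproteins, their receptors and lipocalins, 0 rose and LpR1, a lipophorin receptor, fell (log2 fold change -0.48 ± 0.05, adjusted p = 4.96e-09), while apolpp, the main lipoprotein precursor, had a log2 change of -0.03 (adjusted p = 0.810). The list median was -0.03.

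CRAL-TRIO proteins bind small lipids in a hydrophobic pocket. Of 23 tested, 8 rose and 2 fell (list median 0.08). The shares were 34.8% upward and 8.70% downward, beside 3.64% and 1.91% of all genes tested. Without the control libraries 4 were called upward. CG33514 had 41.3 to 74.6 CPM in refed libraries (median 61.5), against 16.4 to 35.1 CPM in low-cholesterol libraries (median 21.9) (log2 fold change 1.40 ± 0.07, adjusted p = 1.11e-14), and CG10300 rose by 0.90 ± 0.09, both without overlap between the diets. CG32407 rose by 1.01 ± 0.10, and the 2 falling genes were CG31636 (-0.77 ± 0.08) and CG33966 (-0.39 ± 0.05).

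Lysosomal alpha-mannosidases, which trim mannose from glycoproteins during their breakdown, all rose. The 6 genes LManI to LManVI belonged to a list of 25 lysozymes and lysosomal hydrolases, of which 8 rose and 2 fell (list median 0.30). LManVI had 1579 to 2857 CPM in refed libraries (median 2180.2), against 155 to 651 CPM in low-cholesterol libraries (median 358) (log2 fold change 2.52 ± 0.15, adjusted p = 8.81e-14). LManV had 852 to 1797 CPM in refed libraries (median 1298), against 96.2 to 436 CPM in low-cholesterol libraries (median 287) (log2 fold change 2.20 ± 0.15, adjusted p = 2.36e-12). Every refed library exceeded every low-cholesterol library for LManI, LManII, LManIV, LManV and LManVI, and LManIII overlapped (log2 fold change 1.34 ± 0.15, adjusted p = 7.87e-08). LManI (1.69 ± 0.09) and LManII (1.65 ± 0.08) lie apart from the others, whereas LManIII (2L, 8765273 to 8768710), LManIV (2L, 8769159 to 8772344), LManV (2L, 8772946 to 8776263) and LManVI (2L, 8777661 to 8781252) follow each other on the minus strand with 449, 602 and 1398 bases between them. Along that row the log2 changes were 1.34, 2.03, 2.20 and 2.52. Neighbouring copies can share reads, which was not tested. The summed median FPKM of the 6 genes was 1368 in refed and 299.9 in low-cholesterol libraries.

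Enzymes of sphingolipid breakdown moved in both directions. Gba1a, a lysosomal glucocerebrosidase, had 127 to 319 CPM in refed libraries (median 196), against 552 to 835 CPM in low-cholesterol libraries (median 693) and fell without overlap (log2 fold change -1.78 ± 0.10, adjusted p = 1.87e-14). Its paralogue Gba1b fell by less (log2 fold change -0.52 ± 0.08, adjusted p = 2.85e-05). CDase, the neutral ceramidase, had 78.8 to 113 CPM in refed libraries (median 99.8), against 33.5 to 58.6 CPM in low-cholesterol libraries (median 46.3) and rose without overlap (log2 fold change 1.12 ± 0.06, adjusted p = 4.49e-14). CG15533, a relative of acid sphingomyelinase, had 236 to 439 CPM in refed libraries (median 373), against 434 to 793 CPM in low-cholesterol libraries (median 637) and fell (log2 fold change -0.78 ± 0.07, adjusted p = 8.25e-10). CDase and CG15533 were chosen after their values were seen. Other hydrolases of the list that rose were Hexo1 (0.33 ± 0.06) and Gal (0.49 ± 0.10), and the cathepsin genes cathD, CtsB and CtsL1 were not called (adjusted p = 0.409, 0.669 and 0.828).

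**Figure D4:**
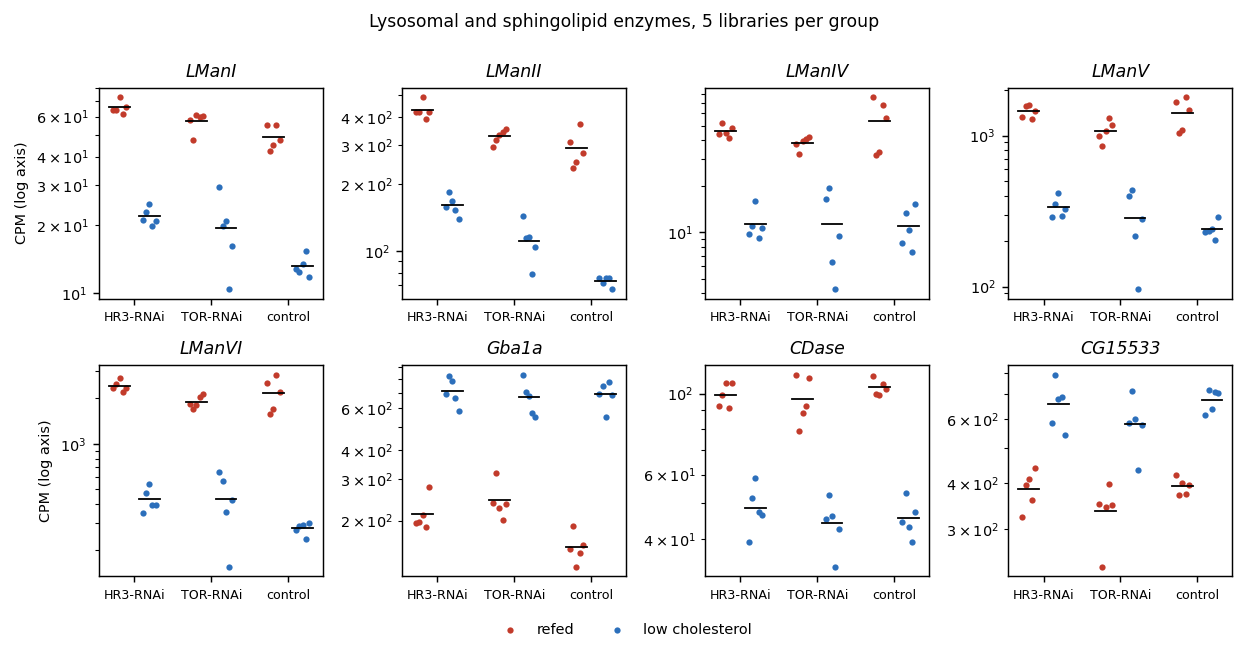
CPM (log axis) of 8 genes of lysosomal and sphingolipid breakdown in each library, with refed libraries (red) left of low-cholesterol libraries (blue) within each genotype and black bars at group means. The mannosidase genes and CDase are higher in all 15 refed libraries, whereas Gba1a is lower in all of them, and CG15533 overlaps, with 236 to 439 CPM in refed and 434 to 793 CPM in low-cholesterol libraries.

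Genes of fatty acid metabolism changed by small amounts with a few exceptions. CG9743, of the fatty acyl desaturase family, had 34.9 to 149 CPM in refed libraries (median 56.0), against 185 to 396 CPM in low-cholesterol libraries (median 305) and fell (log2 fold change -2.16 ± 0.20, adjusted p = 2.94e-09). Of 21 genes of fatty acid synthesis and fat storage, 4 rose and 1 fell (list median 0.02). The rising genes were Dgat2 (0.44 ± 0.11), Lpin (0.27 ± 0.04) and Gpat4 (0.20 ± 0.05), which act in triglyceride synthesis, and Zw (0.37 ± 0.10), which supplies NADPH. The elongase gene Baldspot fell (-0.59 ± 0.08). Without the control libraries, 2 of the 4 rises were called, and 1 without the HR3-RNAi libraries.

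Of 18 genes of fat breakdown and beta-oxidation, CG9547 (0.21 ± 0.06) and yip2 (0.15 ± 0.04) were called upward (list median 0.08). This count was 1 to 6 when 1 library was left out, the highest being without TOR-RNAi low-cholesterol replicate 1, and it was 0 without the control or the HR3-RNAi libraries but 6 without the TOR-RNAi libraries. Among 14 genes of peroxisome biogenesis, Pex13 (0.19 ± 0.05) and Pex3 (0.16 ± 0.03) rose (list median 0.01). They were 14.3% of the list, beside 3.64% of all genes tested that were called upward. Both calls were lost without the control libraries, and that of Pex13 also without the HR3-RNAi libraries. Of 7 genes of the mevalonate pathway, which in flies makes isoprenoids but no sterols, Fpps (farnesyl pyrophosphate synthase) was called (0.26 ± 0.05). The call for Fpps was lost without the control libraries. The list median was 0.01.

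Cholesterol is the precursor of ecdysone, the moulting hormone. Of 14 genes of ecdysone synthesis and breakdown, 0 were called by edgeR's quasi-likelihood test and 1 by DESeq2 (list median 0.05). Over all genes tested edgeR called 5.55%, and 14 genes are too few to tell 0 calls from that share. At an unadjusted p under 0.05 there were 2 of the 14, beside 1848 of 12178 genes tested. The largest estimate was that of dib, a P450 of the pathway (log2 fold change 0.85 ± 0.27, adjusted p = 0.0663). Without control refed replicate 4, 2 genes of this list were called. Of 24 genes of the ecdysone receptor and its response, ImpL2 was the only one called (log2 fold change 0.41 ± 0.11, adjusted p = 0.0134), and the primary response genes Eip75B, Eip74EF and br had log2 changes of -0.06, 0.12 and 0.09. The list median was -0.02.

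In the juvenile hormone list, 4 of 9 genes rose, and 3 of them encode the epoxide hydrolases that break the hormone down, Jheh1 (0.25 ± 0.06), Jheh2 (0.30 ± 0.04) and Jheh3 (0.31 ± 0.08). The other was gce, a receptor of the hormone (0.23 ± 0.07), whose call was lost when any of 12 of the 30 libraries was left out. The list median was -0.01, since the other members had estimates near 0 or below. Without the control libraries 1 of the 4 was called, and 2 without the HR3-RNAi libraries.

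Insulin and TOR signaling genes had transcript estimates from -0.09 to 0.41, with 28 of 37 above 0. The share called upward was 8.1%, beside 3.64% of all genes tested. Of 37 tested, 3 rose, ImpL2, an antagonist of insulin-like peptides, with 50.5 to 142 CPM in refed libraries (median 61.3), against 39.1 to 63.7 CPM in low-cholesterol libraries (median 50.5), Myc, a growth regulator (0.32 ± 0.07), and S6k, the kinase downstream of TOR (0.12 ± 0.04). The list median was 0.06. The call for S6k was lost when any of 25 libraries was left out. Of 10 genes of sestrin and the GATOR complexes, which relay amino acid supply to TOR, Sesn (0.18 ± 0.04) and Wdr24 (0.17 ± 0.04) rose (20% of the list, list median 0.06). Of 21 autophagy genes, Atg13 was called (0.23 ± 0.04, 4.76% of the list, list median 0.04). Without the control libraries none of these insulin, TOR, sestrin and GATOR genes was called, and without the TOR-RNAi libraries 2 genes of the insulin and TOR list were called downward.

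Genes of the growth machinery were not called in number. Of 92 cytosolic ribosomal protein genes, 0 were called by edgeR's quasi-likelihood test and 0 by DESeq2, and 11 had an unadjusted p under 0.05, all upward (list median 0.07). Without TOR-RNAi low-cholesterol replicate 1, 5 of them were called upward. Estimates were above 0 for 84 of these 92 genes, 37 of 41 ribosome biogenesis genes and 17 of 70 mitochondrial ribosomal protein genes. The cytosolic list median was 0.12 in HR3-RNAi animals, 0.002 in TOR-RNAi animals and 0.08 in controls. These small shifts of whole lists were not tested. Of 51 translation factors 0 were called by edgeR or DESeq2, 3 at an unadjusted p under 0.05 (median 0.02), and of 41 ribosome biogenesis genes 2 rose, l(3)72Dn (0.26) and l(2)k09022 (0.24), and Nop17l fell (-0.18), with a median of 0.09. Both of those rises were lost in several fits that left out 1 library. By edgeR and by DESeq2, 0 genes were called among 70 mitochondrial ribosomal proteins (median -0.04), 19 aminoacyl-tRNA synthetases (median -0.01), 88 genes of oxidative phosphorylation (median -0.02), 45 of the proteasome (median -0.01), 48 of the cell cycle and DNA replication (median -0.01) and 16 of glycolysis and lactate (median -0.05). At an unadjusted p under 0.05 these 6 lists held 1 proteasome gene and 1 cell cycle gene. Of 32 subunits of the vacuolar proton pump, Vha100-5 fell (-0.24 ± 0.06, median -0.06).

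Digestive proteases of the gut were called upward only. Of 30 digestive serine proteases, 12 rose and 0 fell, and the list median was 0.28. At an unadjusted p under 0.05, 16 were higher and 2 lower, and DESeq2 called 12 upward and 0 downward. Jon44E had 337 to 955 CPM in refed libraries (median 442), against 173 to 561 CPM in low-cholesterol libraries (median 292) (log2 fold change 0.79 ± 0.09, adjusted p = 2.90e-07). The gene iotaTry had 46.6 to 67.3 CPM in refed libraries (median 59.5), against 28.2 to 57.4 CPM in low-cholesterol libraries (median 38.8) (log2 fold change 0.64 ± 0.07, adjusted p = 1.68e-07). The diets overlapped for both. The gene yip7 rose by 0.58 ± 0.12, Jon65Aii by 0.56 ± 0.13, Jon66Ci by 0.45 ± 0.13 and Jon65Ai by 0.44 ± 0.13, and the last 2 lost their call when any of 18 and 12 libraries was left out. The trypsin genes alphaTry (-0.29) and betaTry (-0.10), markers of the midgut, were not called, so the midgut markers did not move together. Without the control libraries 3 of the 12 protease rises were called, and 7 without the HR3-RNAi libraries. CG10472, a serine protease gene outside the list that was chosen after its values were seen, had 473 to 952 CPM in refed libraries (median 746), against 216 to 415 CPM in low-cholesterol libraries (median 276) (log2 fold change 1.27 ± 0.08, adjusted p = 4.58e-13).

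Of 15 amylases, maltases and trehalase genes, 3 rose and 2 fell (list median 0.05). The amylase genes Amy-d (0.70 ± 0.10) and Amy-p (0.49 ± 0.09) rose, and since they are near-identical copies their reads cannot be told apart with certainty. Mal-A8 rose (0.55 ± 0.13) and the alpha-glucosidase genes Mal-A4 (-0.53 ± 0.08) and tobi (-0.64 ± 0.10) fell. Among 23 sugar and amino acid transporters, 4 rose (list median 0.07). Glut1, a glucose transporter, had 33.8 to 41.4 CPM in refed libraries (median 37.5), against 14.9 to 24.5 CPM in low-cholesterol libraries (median 18.7) (log2 fold change 0.97 ± 0.06, adjusted p = 9.86e-14), and the sugar transporter gene sut1 had 147 to 194 CPM in refed libraries (median 179.8), against 85.0 to 133 CPM in low-cholesterol libraries (median 107) (log2 fold change 0.73 ± 0.06, adjusted p = 6.86e-11). Neither overlapped between the diets. Tret1-1, a trehalose transporter, rose by 0.30 ± 0.07, with 0.44 in HR3-RNAi animals, 0.02 in TOR-RNAi animals and 0.45 in controls, and sbm rose by 0.33 ± 0.09.

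Of 27 mucins and peritrophic matrix genes, Muc68E (0.95 ± 0.12) and the lowly expressed Muc68D (1.44 ± 0.33) rose (list median 0.01). Of 18 chitin enzymes, the chitinase genes Cht4 (-0.93 ± 0.23), Cht9 (-0.85 ± 0.15) and Cht6 (-0.39 ± 0.10) fell (list median 0.00). Cht4 changed by -1.36 in HR3-RNAi animals, 0.09 in TOR-RNAi animals and -1.50 in controls. Of 34 tetraspanins, Tsp42Eb rose (log2 fold change 1.70 ± 0.25, adjusted p = 1.57e-05), and Tsp29Fa (-0.39 ± 0.07) and Tsp2A (-0.29 ± 0.07) fell (list median 0.02).

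Detoxification families differed in direction. Of 76 cytochrome P450 genes, 13 rose and 2 fell (list median 0.09). The shares were 17.1% upward and 2.63% downward, beside 3.64% and 1.91% of all genes tested. Without the control libraries 7 were called upward, and without the HR3-RNAi libraries 0 were called downward. Cyp6t1 had 4.11 to 20.3 CPM in refed libraries (median 11.9), against 1.23 to 11.4 CPM in low-cholesterol libraries (median 3.40) (log2 fold change 1.56 ± 0.19, adjusted p = 7.23e-07), and Cyp316a1 (0.95 ± 0.11), Cyp6w1 (0.89 ± 0.13), Cyp311a1 (0.70 ± 0.10) and Cyp6d5 (0.56 ± 0.08) rose with it, while Cyp305a1 fell (-0.61 ± 0.13). Of 32 UDP-glycosyltransferases, which attach sugars to small lipophilic compounds, 7 rose (21.9%) and 0 fell (list median 0.11). Without the control libraries 3 of this list were called upward. Ugt37A1 had 3.77 to 84.9 CPM in refed libraries (median 21.5), against 0.511 to 27.8 CPM in low-cholesterol libraries (median 3.99) (log2 fold change 2.64 ± 0.50, adjusted p = 4.76e-04), and its change was 0.90 in HR3-RNAi animals, 3.36 in TOR-RNAi animals and 3.77 in controls. Ugt302C1 had 217 to 310.0 CPM in refed libraries (median 260.5), against 125 to 255 CPM in low-cholesterol libraries (median 176) (log2 fold change 0.56 ± 0.07, adjusted p = 2.84e-06). Ugt37B1 (0.77 ± 0.13) and Ugt49C1 (0.46 ± 0.09) rose as well.

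Glutathione S-transferases, which conjugate reactive compounds to glutathione, were called mainly downward. Of 34 tested, 7 fell and 1 rose, GstS1 (0.10 ± 0.03), and the list median was -0.13. The share called downward was 20.6%, beside 1.91% of all genes tested. Without the control libraries 4 were called downward. The call for GstS1 was kept in 7 of the 30 fits that left out 1 library, and DESeq2 did not call it (adjusted p = 0.0990). At an unadjusted p under 0.05, 16 were lower and 2 higher. GstD10 had 121 to 205 CPM in refed libraries (median 163), against 192 to 420.3 CPM in low-cholesterol libraries (median 261) (log2 fold change -0.76 ± 0.10, adjusted p = 1.39e-06). GstD8 had 12.1 to 43.4 CPM in refed libraries (median 21.6), against 27.4 to 56.7 CPM in low-cholesterol libraries (median 44.5) (log2 fold change -0.80 ± 0.15, adjusted p = 5.59e-04). Of the 7 falling genes 5 belonged to the GstD group, with GstD7 (-0.52), GstD2 (-0.48) and GstD1 (-0.27) beside these, and the others were GstT3 (-0.42) and GstE3 (-0.33).

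Heat shock genes were called only downward. Of 19 tested, 2 fell, Hsp83 (log2 fold change -0.40 ± 0.06, adjusted p = 3.48e-05), the fly Hsp90, and Hsp110 (-0.16 ± 0.05), whose call was lost when any of 14 libraries was left out (list median -0.08). DnaJ-1, the main inducible Hsp40, had 20.3 to 68.7 CPM in refed libraries (median 28.1), against 65.1 to 87.9 CPM in low-cholesterol libraries (median 79.0) (log2 fold change -1.26 ± 0.11, adjusted p = 1.61e-09). The lone overlap came from TOR-RNAi refed replicate 3, at 68.7 CPM against 20.3 to 33.8 CPM in the other 4 libraries of its group. Of 5 Turandot stress peptides tested, 0 were called by edgeR or DESeq2 and 0 had an unadjusted p under 0.05 (list median 0.14).

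Antimicrobial peptide genes varied widely among refed libraries. Of 18 tested, 2 were called, DptA (log2 fold change 3.97 ± 1.14, adjusted p = 0.0339) and Def (log2 fold change 2.79 ± 0.84, adjusted p = 0.0437), and the list median was 1.46. These 2 were 11.1% of the list, beside 3.64% of all genes tested that were called upward. At an unadjusted p under 0.05, 9 were higher and 0 lower, beside 1848 of 12178 genes tested in either direction. Within genotypes the list median was 0.25 in HR3-RNAi animals, 2.90 in TOR-RNAi animals and 0.45 in controls, a difference that was not tested. The call for Def was lost when any of 15 libraries was left out, and its estimate was 1.92 (adjusted p = 0.0607) without TOR-RNAi refed replicate 2. DptA, the gene for diptericin, had 767, 396, 78.1, 45.5 and 0.308 CPM in TOR-RNAi refed libraries, against 0.697 to 2.78 CPM in TOR-RNAi low-cholesterol libraries. In controls it had 149 CPM in refed replicate 2 and at most 0.997 CPM in the other 4 refed libraries, against 0.143 to 16.5 CPM on low cholesterol. In HR3-RNAi animals 1 refed library of 5 exceeded 0.496 CPM, at 14.3 CPM, against 0.0909 to 1.76 CPM on low cholesterol. Thus the medians ran opposite to the means, with 0.496 CPM in refed and 1.76 CPM in low-cholesterol libraries over all genotypes. The estimate for DptA was 2.72 (adjusted p = 0.442) without control refed replicate 2, and the call was lost when any of 10 libraries was left out. The gene edin, which is induced on infection, behaved alike: it had 283.5 CPM in TOR-RNAi refed replicate 2, and its estimate was 4.48 ± 1.32 (adjusted p = 0.0395) with all libraries, 2.81 (adjusted p = 0.0729) without that library and 3.81 (adjusted p = 0.247) without control refed replicate 2. The list count changed with the method and the libraries, since DESeq2 called 5 genes of the list and edgeR called 0 without the pair of libraries with the lowest roX level. BomS2, chosen after its values were seen, was called (log2 fold change 3.93 ± 1.10, adjusted p = 0.0282) with 1 sign in TOR-RNAi animals and controls and the other in HR3-RNAi animals. It was not called by DESeq2 (log2 fold change 1.77, adjusted p = 0.394) or by edgeR's mean contrast of the 6 groups (1.90, adjusted p = 0.665), and its call was lost when any of 7 libraries was left out. PGRP-SC2, an enzyme that degrades bacterial peptidoglycan and was chosen after its values were seen, rose in each genotype by a like amount (log2 fold change 1.00 ± 0.17, adjusted p = 1.91e-04), with 0.96 in HR3-RNAi animals, 1.04 in TOR-RNAi animals and 0.99 in controls.

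Amino acid metabolism had called genes in each of its lists. Of 13 genes of glutamate, glutamine and proline metabolism, P5CS (0.39 ± 0.06), which makes a proline precursor, and Got1 (0.21 ± 0.05) rose (list median 0.11). These were 15.4% of the list, beside 3.64% of all genes tested that were called upward. Of 16 genes of phenylalanine and tyrosine metabolism, hgo, the homogentisate dioxygenase, fell (-0.69 ± 0.14, list median 0.02). The share called downward was 6.25%, beside 1.91% of all genes tested. DESeq2 called 3 genes of that list downward.

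In the lists of stage and sex markers edgeR called 0 genes, beside 5.55% of all genes tested. Apart from the cuticle genes, these lists are too short to tell 0 calls from that share. Of 78 cuticle protein genes, 0 were called by edgeR and 1 by DESeq2, and 5 had an unadjusted p under 0.05, all downward (list median -0.06). Of 11 salivary glue and late larval secretion genes, 0 were called by either tool and 0 had an unadjusted p under 0.05, with a list median of 0.83. Within genotypes the median of these glue genes was -2.20 in HR3-RNAi animals, 1.03 in TOR-RNAi animals and 4.47 in controls, and the part of these stage markers in the differences between genotypes was not tested. For 6 hexamerin and Fbp genes of the fat body both counts were also 0 (median 0.17). Of 37 genes of the larval testis, 0 were called by either tool and 1 had an unadjusted p under 0.05 (median -0.37), and of 7 dosage compensation genes likewise 0 and 1 (median -0.06). With the roX level as a covariate, 726 genes were called for diet, of which 655 were among the 676.

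**Figure D5:**
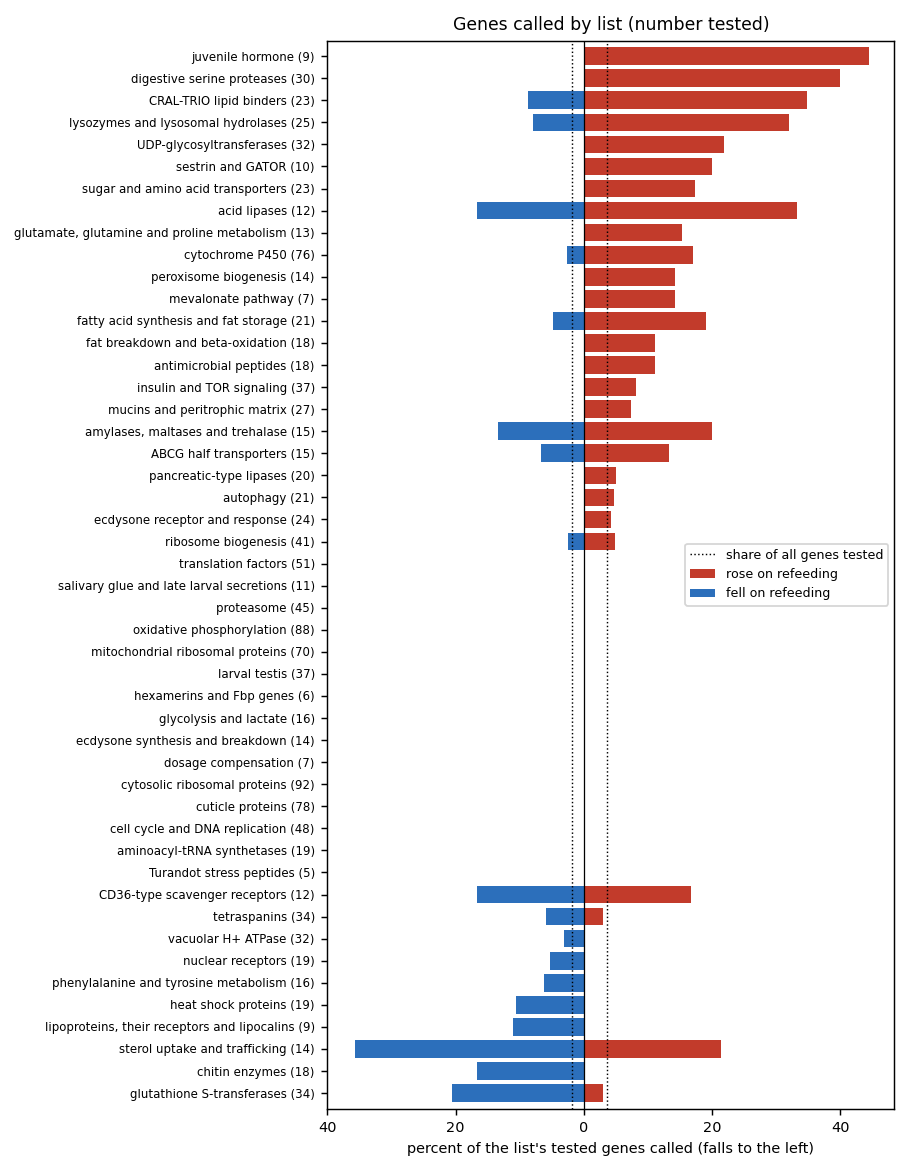
Percent of the tested genes of each of the 48 lists that rose (red, to the right) or fell (blue, to the left) on refeeding, with the number tested in brackets. Dotted lines mark the shares of all genes tested, 3.64% up and 1.91% down. Sterol uptake has called genes on both sides (3 up and 5 down of 14), digestive proteases only rises (12 of 30), and ribosomal, proteasome and oxidative phosphorylation genes none.

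Several of the largest changes belonged to genes known only by a CG or CR number. CG7381 fell most, with 100.01 to 217 CPM in refed libraries (median 149), against 936 to 1579 CPM in low-cholesterol libraries (median 1191) (log2 fold change -2.97 ± 0.11, adjusted p = 4.26e-18). CR17024, a gene with a CR number, which FlyBase gives to non-coding genes and pseudogenes, had 0.248 to 2.26 CPM in refed libraries (median 0.637), against 3.22 to 8.68 CPM in low-cholesterol libraries (median 5.05) (log2 fold change -2.90 ± 0.26, adjusted p = 1.61e-09). Neither overlapped between the diets. CG10081 had 23.04 to 287 CPM in refed libraries (median 152), against 5.32 to 24.6 CPM in low-cholesterol libraries (median 11.4) (log2 fold change 3.42 ± 0.32, adjusted p = 4.07e-09), and its neighbour CG10073, 958 bases away on 2R and chosen after its values were seen, rose by 1.66 ± 0.26. CG14820 rose (log2 fold change 2.07 ± 0.18, adjusted p = 8.67e-10) at low levels of at most 26.9 CPM, and CG3706 fell (log2 fold change -1.41 ± 0.18, adjusted p = 2.07e-06).

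Among transporters of unknown cargo, MFS1, of the major facilitator family, had 14.97 to 34.5 CPM in refed libraries (median 22.7), against 40.2 to 80.6 CPM in low-cholesterol libraries (median 57.0) (log2 fold change -1.26 ± 0.12, adjusted p = 3.01e-09). The gene prt (portabella), a vesicular transporter of neurons, fell at low levels (log2 fold change -1.33 ± 0.16, adjusted p = 4.70e-07), and its highest refed library had 1.70 CPM and its lowest low-cholesterol library 1.89 CPM. CG14499 was called (log2 fold change -1.27 ± 0.38, adjusted p = 0.0414) but its call was lost when any of 19 libraries was left out. The gene net, a basic helix-loop-helix transcription factor chosen after its values were seen, rose (log2 fold change 1.18 ± 0.10, adjusted p = 1.99e-10).

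The diet effect was also tested for differences between the genotypes, to see which genes the mean over genotypes describes. In 1 fit of the 6 groups, 1 of 12178 genes (0.00821%) had an adjusted interaction p under 0.05 (both interaction terms together, edgeR's quasi-likelihood test), and 1269 had an unadjusted p under 0.05. That gene, CG33116, had a diet change of -1.22 in HR3-RNAi animals, -0.06 in TOR-RNAi animals and -0.80 in controls (adjusted p = 0.0380). Its refed levels were 18.6 to 22.97 CPM in HR3-RNAi animals, against 38.2 to 54.6 CPM on low cholesterol. In TOR-RNAi animals they were 17.0 to 32.8 CPM, against 21.1 to 29.3 CPM, and in controls 19.4 to 27.2 CPM, against 35.3 to 45.0 CPM. Of the 676 called genes 22.3% had an unadjusted interaction p under 0.05, against 10.4% of all genes tested. The interaction count depended on the model and on single libraries. It was 148 with the roX level as a covariate, 250 with DESeq2's likelihood ratio test, 187 without TOR-RNAi refed replicate 4, 41 without TOR-RNAi refed replicate 1, 8 without TOR-RNAi low-cholesterol replicate 1, and 0 to 2 without each other library. Of the 148 genes found with the roX covariate, 36 were among the 676 called for diet, including GramD1B, CG9743, Gba1a, CG31091, CG9663, Cht4 and Jheh2. For 27 of the 36 the change along the mean direction was smallest in TOR-RNAi animals. These within-genotype changes came from the fit of the 6 groups without the roX covariate. For CG9743 the within-genotype changes were -2.96 in HR3-RNAi animals, -1.18 in TOR-RNAi animals and -2.32 in controls (edgeR's quasi-likelihood test of the interaction, adjusted p = 0.0704). For GramD1B they were -1.80 in HR3-RNAi animals, -1.04 in TOR-RNAi animals and -1.76 in controls (edgeR's quasi-likelihood test of the interaction, adjusted p = 0.0761). CG9380 and CG10911, the other genes of smallest interaction p, changed by -0.81 in HR3-RNAi animals, -0.14 in TOR-RNAi animals and -0.46 in controls and by -1.15 in HR3-RNAi animals, 0.19 in TOR-RNAi animals and -0.77 in controls. A like size in all genotypes was therefore not shown for these genes, although CG9743, GramD1B and CG9380 had 1 sign throughout.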

How the data were processed

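RNA of whole larvae was sequenced in 30 libraries. The authors deposited read counts per gene, unnormalised, beside FPKM values. The submitters' processing notes name CASAVA, HISAT2, StringTie and featureCounts, with DESeq2 and edgeR, and the genome build and strand setting were not given in the sources used here. The deposited counts were analysed with edgeR 4.0.16 (TMM scaling, filterByExpr, quasi-likelihood F test, diet with genotype as additive term) in R 4.3.3 with limma 3.58.1, with DESeq2 1.42.0 as alternative. The deposited FPKM values served only to set levels of different genes side by side. Columns of the authors' own comparisons were not used.

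CPM values are scaled by TMM library sizes. Of 17713 features, 17251 were named by the reference table and 59 by a supplementary gene table, and 155 were unannotated loci. Coordinates are those of the BDGP6 annotation: for 1678 of 1696 genes (98.9%) chromosome, start and end matched the study's gene table within 1000 bases. On simulated counts with 100 genes changed by 0.5 and 100 by 1 (log2) among 12075 genes, this additive test found 79% and 90%, and 5.06% of its calls were false. The changed genes were drawn from those above 1 log2 CPM, and each gene and library was simulated independently. In the real data the first principal component held 50.9% of the variance. These shares therefore need not hold for lowly expressed genes or for variation that genes share within a library. Libraries of a group are separate pools of larvae.

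Named genes were the 14 largest rises and falls among called genes whose average log2 CPM was 1 or more and whose sign was shared by all genotypes, up to 6 called members of each of 48 gene lists, and up to 5 called genes with the smallest interaction p. The lists, members and tests were chosen with earlier results of these data known. The patterns of the cuticle and mannosidase lists were corrected after values had been seen, because the first had caught accessory gland genes and the second had missed LManV and LManVI. Alternatives were other size factors, filters and tests, a roX covariate, a replicate block, and omission of each library, of each genotype or of the pair with the lowest roX level.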

Additional observations from a re-analysis of the deposited data

Results flagged for a closer look

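In groups of 5 libraries, a library was singled out when its gap to the nearest other exceeded 0.71 of the group's range (Dixon's 95% value). Over the 31 genes with the largest changes or the smallest interaction p, 186 groups were checked and 22 were singled out, in 16 genes. Chance alone gives about 1 in 20 groups if values are normally distributed, which was not checked for these CPM values. Every library singled out lay above the rest of its group, so the count cannot be set against that rate. Immune genes accounted for several of the 22. edin had 283 CPM in TOR-RNAi refed replicate 2, against 0.103 to 7.43 CPM in the other 4 libraries, and 13.1 CPM in control refed replicate 2, against 0 to 0.347 CPM in the other 4 libraries. DptA had 14.3 CPM in HR3-RNAi refed replicate 5, against 0.0375 to 0.496 CPM in the other 4 libraries, and 149 CPM in control refed replicate 2, against 0 to 0.997 CPM in the other 4 libraries. Def had 4.20 CPM in HR3-RNAi refed replicate 5, against 0.249 to 1.13 CPM in the other 4 libraries, 167 CPM in TOR-RNAi refed replicate 2, against 0.872 to 30.8 CPM in the other 4 libraries, and 4.94 CPM in control refed replicate 2, against 0.117 to 0.473 CPM in the other 4 libraries. Control refed replicate 2, TOR-RNAi refed replicate 2 and HR3-RNAi refed replicate 5 thus recurred among these genes.

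Among genes of lipid and sterol handling, Npc2c had 89.4 CPM in HR3-RNAi refed replicate 3, against 63.7 to 70.4 CPM in the other 4 libraries. CG31091 had 11.8 CPM in control low-cholesterol replicate 1, against 2.58 to 5.10 CPM in the other 4 libraries. CG31089 had 134 CPM in HR3-RNAi refed replicate 2, against 122 to 125 CPM in the other 4 libraries. Abca3 had 74.2 CPM in control low-cholesterol replicate 4, against 54.9 to 60.3 CPM in the other 4 libraries. CG9743 had 63.4 CPM in HR3-RNAi refed replicate 5, against 34.9 to 38.9 CPM in the other 4 libraries. In each of these genes the refed and low-cholesterol libraries did not overlap. Lysosomal genes gave a library each. LManIV had 16.0 CPM in HR3-RNAi low-cholesterol replicate 3, against 9.19 to 11.1 CPM in the other 4 libraries. Gba1a had 278 CPM in HR3-RNAi refed replicate 5, against 188 to 212 CPM in the other 4 libraries. A tetraspanin gene, Tsp42Eb, had 20.8 CPM in HR3-RNAi low-cholesterol replicate 1, against 5.74 to 9.14 CPM in the other 4 libraries, 12.7 CPM in TOR-RNAi low-cholesterol replicate 2, against 2.18 to 5.02 CPM in the other 4 libraries, and 38.2 CPM in TOR-RNAi refed replicate 3, against 12.7 to 19.0 CPM in the other 4 libraries. Of the remaining genes, Ugt37A1 had 5.39 CPM in TOR-RNAi low-cholesterol replicate 1, against 0.511 to 0.727 CPM in the other 4 libraries. CG14820 had 17.3 CPM in TOR-RNAi refed replicate 4, against 9.51 to 10.6 CPM in the other 4 libraries. CR17024 had 2.26 CPM in control refed replicate 2, against 0.290 to 0.743 CPM in the other 4 libraries. CG14499 had 18.3 CPM in control refed replicate 5, against 0.737 to 3.85 CPM in the other 4 libraries. DnaJ-1 had 68.7 CPM in TOR-RNAi refed replicate 3, against 20.3 to 33.8 CPM in the other 4 libraries.

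With all libraries, the diet effect on CG33116 differed between the genotypes (edgeR's quasi-likelihood test of both interaction terms, adjusted p = 0.038). This call depended on single libraries. It was lost, for example, when any control low-cholesterol library or any HR3-RNAi refed library was left out. Its log2 change was -1.22 in HR3-RNAi animals, -0.06 in TOR-RNAi animals and -0.80 in controls. Low-cholesterol levels were 21.1 to 29.3 CPM in TOR-RNAi animals, below the 35.3 to 45.0 CPM of controls, while refed levels overlapped.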

How the results depend on the processing

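As reported, 676 genes were called for diet. Without the control libraries the count was 346 (208 up, 138 down), without the HR3-RNAi libraries 438 (114 down) and without the TOR-RNAi libraries 768 (421 up, 347 down), of which 522 were among the 676, and DESeq2's Wald test called 840 genes (379 down). Leaving out 1 library gave 592 to 808 genes (383 to 545 up, 203 to 263 down), 33 to 39 upward and 17 to 23 downward genes without overlap, and a roX difference of -33.9 to -18.6 CPM (refed minus low cholesterol). Genes with an interaction numbered 148 with the roX level as covariate, 250 with DESeq2's likelihood ratio test, 4 without the pair of libraries with the lowest roX level (an alternative chosen after seeing the data), and 0 to 187 without 1 library. The repeated share was 31.6% to 46.2% in HR3-RNAi animals, 4.96% to 9.33% in TOR-RNAi animals and 50.3% to 62.3% in controls without 1 library, and with the roX covariate it was 13.2% in TOR-RNAi animals and 43.8% in controls. The cause of these shifts was not tested. Of 129 named genes, 115 kept their call in each of the 30 fits without 1 library and 80 in all 41 alternatives, and none changed sign.

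Correlations of same-numbered deviations ran from -0.73 to 0.45. Their mean was 0.186 in HR3-RNAi animals, -0.066 in controls and -0.017 in TOR-RNAi animals. For differently numbered deviations the mean was -0.043, 0.026 and -0.014 in that order. With 5 same-numbered pairs per genotype, these values cannot decide whether replicate numbers paired the samples. With a replicate block, 532 genes were called, 519 of them among the 676, and 1 gene had an interaction. Under the block 14 of the named genes lost their call, among them DptA, Def, edin and BomS2. At a depth of 19744564 counts or more, 3 counts correspond to at most 0.152 CPM, and levels under this could not be told apart from 0.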
